A study of Homo sapiens with 4 samples.

Results

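Transcript levels of 10 genes that shape the cytoskeleton were followed in single human melanoma cells: the filament-capping and filament-severing genes CAPG, GSN and CFL1, the filament-nucleating gene FMN2, the small GTPase genes RND3, RHOB and RHOC, the actin monomer-binding genes TMSB4X and TMSB10, and the intermediate filament gene VIM. All 10 had a row among the 19238 genes of the UMI count table. They were chosen as actin regulators after differences among these cells were already known, so their levels are given as a description and without a test.

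The cells came from 4 related lines, each profiled as 1 library of droplet-based 3' RNA sequencing. Line 113/6-4L is a WM239A subclone whose phenotype is a high potential to spread to the lung, the subclones 131/4-5B1 and 131/4-5B2 are marked by a high potential to spread to the brain, and WM239A itself is their poorly metastatic counterpart. No treatment is named, and each subclone is a single derivative of the same line with no second library. The 8173 cells carried a barcode with a suffix from 1 to 4, called sets 1 to 4 here, and nothing used here ties a suffix to a line. The sets were therefore read as 4 unlabelled samples, and neither a comparison between lines nor a test between sets was made.

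Actin filaments grow at their barbed ends from a pool of monomers. Formins start and extend unbranched filaments, capping proteins of the gelsolin family stop growth, cofilins sever and shorten filaments, and thymosins hold monomers back from assembly. Small GTPases at the membrane switch some of these machines on or off. Moving melanoma cells are known to remodel actin as they change between rounded and elongated shapes.

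The sets held 2121, 1779, 2140 and 2133 cells with 71182648 to 71915542 UMIs each, the lowest total being 98.98% of the highest. Median UMIs per cell were 33556, 41131, 33152.5 and 33390 in sets 1 to 4, and median mitochondrial shares 5.41%, 6.73%, 7.12% and 6.83%. Cells called G1 from cell cycle genes made up 36.9%, 28.3%, 30.9% and 20.3%. There were 39 barcodes that occurred in more than 1 set, on 78 cells. Melanocyte lineage genes were present in every set: 7 of 8 markers, all but TYRP1, were above 10 CPM (UMIs per 1000000 UMIs of a set), with summed levels of 7945, 6946, 9873 and 9232 CPM. Among 5 fibroblast markers only LUM passed 10 CPM (12.7, 2.18, 0.182 and 0.407 CPM). DCN had 68, 0, 1 and 1 UMIs, COL1A1 had 0, 2, 1 and 2 UMIs, and PDGFRA and PDGFRB stayed between 6 and 21 UMIs in every set. Among 5 immune markers only CD68 passed 10 CPM (29.3, 34.1, 38.4 and 37.9 CPM). LYZ had 39, 72, 19 and 18 UMIs, and the leukocyte marker PTPRC had 3, 2, 0 and 3 UMIs. The epithelial keratins KRT8 and KRT18 and the smooth muscle actin ACTA2 also passed 10 CPM, and the summed endothelial markers lay between 1.33 and 2.98 CPM.

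The promoters of the 4 genes that varied most are shown because the sets separated on these transcripts. Each line holds the 250 bases before the first start site listed for the gene by RefSeq (GRCh38.p14), 5' to 3' on the gene's own strand, with capitals marking the CCAAT box, searched as CCAAT or, on the other strand, ATTGG. All 10 genes matched the RefSeq promoter table. The windows lie at chr2:85414017-85414266 (minus strand) for CAPG, chr1:240091633-240091882 (plus strand) for FMN2, chr2:150487696-150487945 (minus strand) for RND3 and chrX:12974860-12975109 (plus strand) for TMSB4X.
CAPG: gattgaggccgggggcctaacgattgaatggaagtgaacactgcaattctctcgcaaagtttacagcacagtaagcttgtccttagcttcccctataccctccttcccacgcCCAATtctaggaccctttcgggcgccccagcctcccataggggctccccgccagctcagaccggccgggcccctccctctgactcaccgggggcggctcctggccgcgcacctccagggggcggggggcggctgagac
FMN2: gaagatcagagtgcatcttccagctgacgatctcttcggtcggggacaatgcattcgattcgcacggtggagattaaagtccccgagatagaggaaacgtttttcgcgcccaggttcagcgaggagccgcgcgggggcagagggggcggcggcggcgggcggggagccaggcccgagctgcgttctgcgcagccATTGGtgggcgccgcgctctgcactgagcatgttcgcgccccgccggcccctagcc
RND3: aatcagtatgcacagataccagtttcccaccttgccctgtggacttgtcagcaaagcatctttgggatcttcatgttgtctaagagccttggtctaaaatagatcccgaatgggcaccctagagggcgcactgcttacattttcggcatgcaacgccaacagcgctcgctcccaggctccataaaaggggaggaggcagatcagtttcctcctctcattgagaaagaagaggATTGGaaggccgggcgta
TMSB4X: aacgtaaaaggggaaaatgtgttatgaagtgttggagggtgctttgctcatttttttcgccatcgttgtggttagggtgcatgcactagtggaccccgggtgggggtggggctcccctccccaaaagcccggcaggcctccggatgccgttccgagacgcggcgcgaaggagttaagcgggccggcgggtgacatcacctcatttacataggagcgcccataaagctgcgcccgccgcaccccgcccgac

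The CAPG, FMN2 and RND3 windows each held 1 CCAAT box and the TMSB4X window 0, and 32.0% of 35116 RefSeq promoter windows of that length hold at least 1. Every motif was searched on both strands. The GC box GGGCGG occurred 3 times before CAPG, 2 times before FMN2, once before TMSB4X and 0 times before RND3, and 42.6% of all windows hold it. CAPG alone of the 4 windows held the AP-1 core TGANTCA, which 6.57% of windows hold. RND3 alone held a CArG box, the element bound by serum response factor, which 1.16% of windows hold, and none of the 4 held the TEAD element GGAATG, found in 11.9%. These matches are letters in a window and say nothing of whether a factor binds. CAPG and RND3 have 4 and 2 listed starts, so another start would give another window, and GC content was 64.4%, 66.4%, 51.2% and 60.8% for CAPG, FMN2, RND3 and TMSB4X.

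Among these genes, CAPG, FMN2 and RND3, were high in set 1 and low in every other set, and TMSB4X was low in set 1. A gene was counted as measured when it reached 10 CPM in at least 1 set, and as apart when sets differed at least 2-fold as log2(CPM + 1), a scale that shrinks the ratios of low genes. Of the 10 genes 9 were measured, RHOB staying below 10 CPM, and 4 of the 9 spanned 2-fold over the sets, beside 5.85% of 7421 measured genes. Set 1 lay 2-fold above every other set for 3 of the 9 (1.01% of measured genes) and 2-fold below every other set for 0 of them (1.05%). By pairs of sets, 4 of the 9 were apart between sets 1 and 2 (3.18% of measured genes), 3 between sets 1 and 3 (4.35%) and 3 between sets 1 and 4 (4.12%). Away from set 1, 0 were apart between sets 2 and 3 (1.75%), 1 between sets 2 and 4 (1.4%), which was CAPG, and 0 between sets 3 and 4 (0.0539%). These counts come from the contrast that chose the genes, and nothing is read from their excess.

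CAPG encodes a gelsolin-related protein that caps barbed ends without severing filaments. It was counted with 9383, 836, 516 and 286 UMIs, or 131, 11.6, 7.22 and 4.02 CPM, in sets 1 to 4 (exact Poisson 95% intervals 128 to 134, 10.9 to 12.4, 6.61 to 7.87 and 3.57 to 4.51). Set 1 stood far above the rest, and the intervals of all 4 sets were disjoint. The summed fibroblast markers, mainly LUM, were also highest in set 1 (14.0, 2.57, 0.504 and 0.702 CPM), and their part in the levels of CAPG, FMN2 and RND3 was not tested. Here as elsewhere, intervals cover counting error only and not the variation between cultures or libraries. The CAPG level of set 1 was 11.3 times that of set 2 (10.5 to 12.1), 18.1 times that of set 3 (16.6 to 19.9) and 32.6 times that of set 4 (29.0 to 36.8). Sets 2 and 4, the next furthest apart, differed by a ratio of 2.89 (2.53 to 3.32).

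FMN2 encodes a formin that nucleates straight actin filaments and is best known from spindle positioning in mouse oocytes. Its level was 110.2, 17.0, 14.2 and 13.6 CPM (7892, 1220, 1015 and 968 UMIs). Set 1 was high and the other 3 sets were close together: the ratio of set 3 to set 4 was 1.04 (0.956 to 1.14). The FMN2 level of set 1 exceeded that of sets 2, 3 and 4 by ratios of 6.50 (6.11 to 6.91), 7.76 (7.26 to 8.29) and 8.10 (7.58 to 8.67).

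RND3 encodes an atypical small GTPase that stays bound to GTP and opposes ROCK1, a kinase that drives contraction. It was measured at 66.9, 20.0, 23.7 and 22.6 CPM (4792, 1437, 1696 and 1607 UMIs). Set 1 was again alone at the top, but the order below it differed from that of CAPG and FMN2, since set 2 was the lowest. Set 1 to set 2, 3 and 4 ratios were 3.35 (3.16 to 3.55), 2.82 (2.67 to 2.98) and 2.96 (2.80 to 3.14), and sets 3 and 4 were not separated (ratio 1.05, 0.982 to 1.13).

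Of the other GTPase genes among the 10, RHOB was also highest in set 1, by smaller ratios, and RHOC was not. RHOB, whose short-lived product sits mainly on endosomes, was sparse at 9.68, 7.30, 5.21 and 5.49 CPM (693, 525, 372 and 391 UMIs). The ratio of set 1 was 1.33 (1.18 to 1.49) to set 2, 1.86 (1.64 to 2.11) to set 3 and 1.76 to set 4, and sets 3 and 4 overlapped. RHOC, a GTPase known for promoting melanoma metastasis in mouse models, was highest in set 2 instead, with 361, 434, 295 and 295 CPM in sets 1 to 4. Its span between the highest and lowest set was a ratio of 1.47.

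TMSB4X, encoding thymosin beta-4, which binds actin monomers, showed the reverse of CAPG in set 1 with 468, 1302, 878 and 872 CPM. Set 1 was the lowest and set 2 the highest, and sets 3 and 4 could not be told apart (ratio 1.01, 0.995 to 1.02). The ratio of set 1 to set 2 was 0.360 (0.355 to 0.364), and to sets 3 and 4 it was 0.533 and 0.537, just short of a 2-fold difference. Its paralog TMSB10, encoding thymosin beta-10, took another order, with 2793, 2460.3, 3192 and 3223 CPM and the lowest level in set 2. CFL1, the main cofilin of non-muscle cells, had 1370.1, 1406, 1557 and 1616 CPM.

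GSN, encoding gelsolin, the calcium-regulated protein that severs filaments as well as capping them, was nearly level at 206, 178, 176 and 172 CPM. Thus of the 2 gelsolin family members among the 10 genes, CAPG spanned a ratio of 32.6 and GSN one of 1.20. VIM, the intermediate filament gene of mesenchymal and melanoma cells, had 4834, 4960.4, 6272 and 5800.3 CPM and was higher in sets 3 and 4 than in sets 1 and 2. RefSeq names 8 pseudogenes each for CFL1 and TMSB4X, 2 for TMSB10 and 1 for FMN2, none with a row in the table, so reads shared with such copies make these 4 levels uncertain.

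At the margin of the 2-fold rule, TMSB4X with a span of 2.78 was the nearest gene inside and RHOC with a span of 1.47 the nearest measured gene outside. The remaining spans were 1.31 for TMSB10, 1.30 for VIM, 1.20 for GSN and 1.18 for CFL1. RHOB, not measured by the 10 CPM rule, spanned 1.86.

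The single cells showed whether a high level was carried by many cells or by few. To set depths equal, every cell was thinned to 10000 UMIs, which left out 9 shallower cells (6, 1, 1 and 1). CAPG was then detected in 50.6%, 8.10%, 4.49% and 3.33% of cells of sets 1 to 4, against 73.3%, 21.6%, 11.8% and 10.2% at the deposited depth. FMN2 was detected in 62.3%, 15.7%, 13.5% and 12.4% of thinned cells (91.1%, 46.9%, 35.3% and 34.6% unthinned). RND3 was detected in 46.8%, 17.7%, 19.5% and 19.2% (78.2%, 48.0%, 45.7% and 46.2% unthinned). All 3 genes were thus present in many cells of set 1 and in a minority of thinned cells elsewhere. No cell type that should lack these genes was sampled, so the share that free RNA alone would give could not be measured, and the low shares in sets 2 to 4 may hold such background.

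RHOB was found in 10.5%, 7.03%, 5.00% and 5.86% of thinned cells. TMSB4X was found in 92.3%, 99.9%, 98.7% and 99.02%, so that cells without it were mostly in set 1. RHOC was detected in 93.5%, 97.6%, 93.5% and 92.5% and GSN in 84.3%, 81.0%, 79.1% and 80.3% of thinned cells. CFL1, TMSB10 and VIM were present in nearly every cell of every set.

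CAPG was the most unevenly spread of these 3 transcripts. In set 1 the variance of its thinned counts was 3.40 times the mean, beside 1.43 for FMN2 and 1.33 for RND3. Cells without a CAPG UMI made up 49.4% of set 1, where a Poisson count of the same mean would give 27.3%. The 10% of set 1 cells with most CAPG UMIs held 44.9% of them, while the deepest 10% held 16.8% of all UMIs. For FMN2 and RND3 the top 10% of cells held 28.2% and 30.5%. Per-cell CAPG levels in set 1 had a median of 59.3 CPM, a 90th percentile of 353 CPM and a 10th percentile of 0.

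A few cells carried much of the CAPG seen outside set 1. In set 3 the 10 cells with most CAPG UMIs held 38.2% of them, and the highest single cell, with 57 UMIs, held 11.05%. The corresponding share of 10 cells was 5.23% in set 1, 19.6% in set 2 and 19.6% in set 4. Leaving out those 10 cells in each set gave ratios of set 1 to sets 2, 3 and 4 of 13.3, 27.8 and 38.5. The 10 cells thus mattered most for set 3, where the ratio with them was 18.1. TMSB4X was uneven in every set, with a variance of 3.98, 4.65, 6.18 and 5.08 times the mean. The means themselves differed (4.87, 13.3, 9.08 and 8.93 thinned UMIs), so these values do not rank the sets. The 10% of cells with most TMSB4X UMIs held 29.6%, 23.8%, 28.4% and 27.2% of them, the most in set 1. In set 1, 7.71% of thinned cells lacked TMSB4X, where a Poisson count of the same mean would leave 0.770%.

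Although CAPG, FMN2 and RND3 were high in the same set, they were not concentrated in the same cells. In set 1, FMN2 was detected in 58.2% of the 1071 cells with CAPG (exact 95% interval 55.1% to 61.1%) and in 66.6% of the 1044 cells without it (63.6% to 69.4%). RND3 was detected in 44.4% of cells with CAPG (41.4% to 47.5%) and in 49.1% of cells without it (46.1% to 52.2%), and these intervals overlap. RND3 and FMN2 went the other way: RND3 was found in 49.5% of the 1318 cells with FMN2 (46.8% to 52.3%) and in 42.2% of the 797 cells without it (38.7% to 45.7%).

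All 3 transcripts were found together in 296 thinned cells of set 1, or 14.0%, beside the 312 cells (14.8%) that the 3 separate shares would give if they were independent. In sets 2, 3 and 4 the triple-positive cells numbered 3, 3 and 1. Cells with none of the 3 transcripts made up 9.13%, 63.8%, 66.4% and 68.7% of sets 1 to 4. Triple-positive cells were thus found mainly in set 1, at a frequency close to the product of the separate shares.

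Pearson correlations across cells on log(1 + thinned count) were weak for these pairs. CAPG with FMN2 gave -0.0996, 0.0294, 0.00235 and 0.00201 in sets 1 to 4 (2115, 1778, 2139 and 2132 cells). CAPG with RND3 gave -0.0755, -0.0361, 0.00649 and -0.0320, and FMN2 with RND3 gave 0.113, 0.0300, -0.0184 and 0.0416. Cells of a set share a library and were thinned to 1 depth, the counts are sparse, and coefficients of this size are no finding by themselves. In set 1 cells called G1, CAPG with FMN2 gave -0.0647 and CAPG with RND3 -0.0315.

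**Figure D1:**
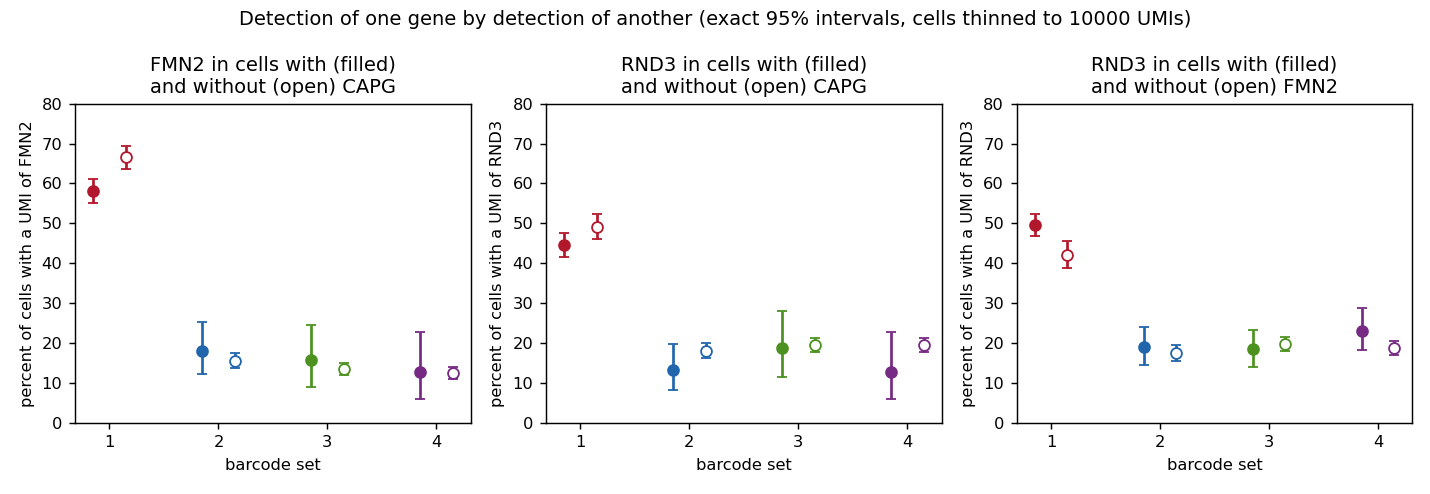
Share of cells with the second gene of a pair among cells with and without the first gene, in sets 1 to 4 (percent of thinned cells, exact binomial 95% intervals). In set 1 FMN2 is found in 58.2% of cells with CAPG and 66.6% of cells without it, and RND3 in 49.5% of cells with FMN2 and 42.2% of cells without it.

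Ordering the set 1 cells by their CAPG count showed what else differed along it. With 0, 1, 2 to 3 and 4 or more thinned CAPG UMIs (1044, 459, 380 and 232 cells), FMN2 stood at 118, 114, 101 and 82.2 CPM. RND3 stood at 73.3, 70.5, 56.4 and 49.7 CPM along the same bins. Both were lower the more CAPG a cell had, while TMSB4X stayed between 458 and 490 CPM. Median UMIs per cell were 32879, 34068, 35129 and 34960, median mitochondrial shares 5.32%, 5.38%, 5.52% and 5.70%, and shares of G1 cells 40.2%, 37.7%, 31.8% and 28.9%, so phase and depth moved with CAPG too, and their part in the result was not tested.

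Other genes moved along these bins, and 3 were picked after their values were seen. PMEL, which encodes the melanosome matrix protein, stood at 1968, 2091, 2408 and 3070 CPM. MMP1, the interstitial collagenase, stood at 191, 130, 75.8 and 34.9 CPM, and the class II antigen gene HLA-DRA at 82.97, 60.0, 31.6 and 21.1 CPM. Cells of set 1 rich in CAPG were thus richer in the pigment gene and poorer in the collagenase and the antigen gene. In set 1 the correlation of CAPG with PMEL was 0.250 and with MMP1 -0.235, while the 1st and 99th percentiles of all genes compared were -0.0882 and 0.124. Both genes were picked for their values, so nothing is read from their lying beyond these percentiles. In sets 2, 3 and 4 the correlation was 0.0766, 0.0347 and -0.0117 with PMEL. With MMP1, which was at most 1.32 CPM there, it was -0.00656, 0.0953 and 0.00262. The bin of 4 or more CAPG UMIs held 9, 6 and 1 cells in sets 2, 3 and 4, too few to follow.

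Grouping set 1 cells by FMN2 or RND3 gave the matching picture. Across 0, 1, 2 to 3 and 4 or more FMN2 UMIs, RND3 stood at 55.3, 68.0, 77.9 and 97.7 CPM and CAPG at 152, 124, 113 and 91.7 CPM. The share of G1 cells along these bins was 29.7%, 36.4%, 44.4% and 53.5%, and median UMIs per cell were 35834, 33367, 32004.5 and 28655, and the part of phase and depth was not tested. Across the RND3 bins, FMN2 stood at 101, 115, 128 and 174 CPM and CAPG at 143, 122, 104 and 97.2 CPM.

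FMN2 and RND3 had their lowest level in G2M cells of every set, and CAPG took no common course. In cells called G1, S and G2M, FMN2 stood at 135, 107 and 78.2 CPM in set 1, 20.9, 16.7 and 13.4 in set 2, 16.7, 13.8 and 12.1 in set 3 and 15.2, 14.5 and 11.2 in set 4. The ratio of S and G2M cells to G1 cells was 0.720, 0.744, 0.790 and 0.873, the last with an interval of 0.745 to 1.03. RND3 in G1, S and G2M stood at 85.9, 62.6 and 46.0 CPM in set 1, 21.1, 24.2 and 11.3 in set 2, 29.4, 25.8 and 12.9 in set 3 and 32.9, 24.8 and 12.9 in set 4. Its G2M level was the lowest of the 3 phases in every set, and its ratios of S and G2M cells to G1 cells were 0.667, 0.929 (0.828 to 1.05), 0.730 and 0.617.

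CAPG was higher in S and G2M than in G1 cells of set 1 and lower in those of sets 2 and 3. Its ratios of S and G2M cells to G1 cells were 1.21 (1.16 to 1.26), 0.468 (0.407 to 0.538), 0.485 (0.407 to 0.580) and 1.11 (0.809 to 1.54). Without the 10 cells richest in CAPG these ratios were 1.31, 0.757, 0.539 and 0.852, so that of set 4 crossed 1. In G1 cells alone, CAPG of set 1 exceeded that of sets 2 and 3 by ratios of 6.03 and 10.1, smaller than over all cells. For set 4 the ratio was 31.1 in G1 cells, close to the 32.6 over all cells. VIM was lower in S and G2M cells (ratios 0.882, 0.910, 0.878 and 0.854). The ratios of CFL1 were 1.03, 1.10, 1.05 and 1.07, or 0.037, 0.137, 0.066 and 0.099 as log2. Over all genes the median log2 ratio was 0.031, 0.033, 0.029 and 0.042, so CFL1 of set 1 lay close to it.

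**Figure D2:**
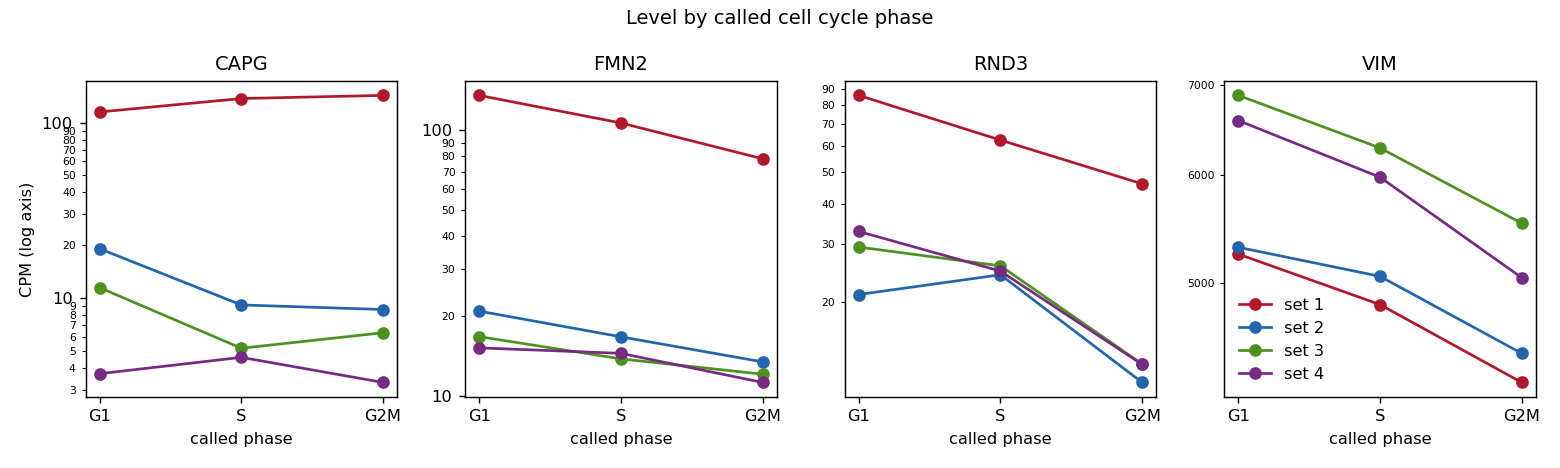
Levels of CAPG, FMN2, RND3 and VIM in cells called G1, S and G2M, with 1 line per set (CPM, log axis). FMN2 and VIM fall from left to right in every set and RND3 is lowest in G2M in every set, while CAPG of set 1 lies between 115 and 143 CPM in all 3 phases.

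Genes with the most similar pattern over the 4 sets were sought among genes of at least 50 CPM, by the root mean square difference of centred log2(CPM + 1). For CAPG they were HLA-DRA (0.59), FMN2 (0.65), IGFBP7 (0.74), HLA-DPA1 (0.88) and RP11-19N8.4 (0.90). For FMN2 they were RP11-19N8.4 (0.26), MFI2 (0.36), RND3 (0.57), OAF (0.58) and IGFBP7 (0.58). For RND3 they were PRNP (0.10), PMAIP1 (0.18), HMG20B (0.18), MFSD12 (0.18) and PLAT (0.19). CAPG, FMN2 and RND3 were chosen with set differences known, so nothing is read from their closeness to each other over sets. HLA-DRA, the closest to CAPG by set, was among the genes most opposed to it across set 1 cells (correlation -0.194).

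Across cells, the genes closest to CAPG, FMN2 and RND3 by the lowest correlation of the 4 sets reached only 0.0505 (GPR137B), 0.0329 (AMZ2) and 0.0425 (ANXA1). Next came AKR1A1, SCCPDH, HINT2 and TSC22D1 for CAPG, PFDN5, ATP6V1B2 and GABARAPL2 for FMN2, and BCL2A1, IER3 and LAPTM4A for RND3. Abundant genes gave higher values, looked at after the data were seen. CFL1 was closest to ACTB, the cytoplasmic beta-actin (0.277, 0.245, 0.346 and 0.308 in sets 1 to 4), and to the actin monomer-binding gene PFN1 (0.234, 0.237, 0.321 and 0.329). VIM was closest to GAPDH (0.598, 0.440, 0.568 and 0.506) and GSN to PMEL (0.232, 0.181, 0.247 and 0.241). Among the 45 pairs of the 10 genes, the highest coefficient in set 1 was 0.223, for TMSB10 with VIM.

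The wider actin and filament machinery was read from 11 lists that held 166 genes, 159 of them in the table and 112 measured. Beside the 10 genes, 103 list genes were measured and 9 of these (8.74%) spanned 2-fold, against 5.85% of all measured genes. This order turned round with a minimum of 50 CPM, where 1 of 54 (1.85%) spanned 2-fold against 4.498% of all genes, and with a pseudocount of 10 CPM the shares were 2.91% (3 of 103) and 2.67%. Set 1 was 2-fold above every other set for 2 of the 103 (1.94%, against 1.01% of all measured genes) and 2-fold below for 2 (1.94%, against 1.05%). With TMM scaling these counts were 0 and 3 of 102, and with the pseudocount of 10 CPM or the minimum of 50 CPM both were 0.

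In the gelsolin and capping list 1 of 7 measured genes, CAPG, spanned 2-fold, and in the formin and SPIRE list 1 of 11, FMN2. Of 15 measured genes of the cofilin, profilin and thymosin list 2 did: TMSB4X and PFN2, a profilin that delivers monomers, with 69.8, 44.1, 26.4 and 28.6 CPM. PFN2 was highest in set 1, where TMSB4X was lowest.

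Among 9 measured targets of serum response factor and its MRTF coactivators, 2 spanned 2-fold, beside 5.85% of all measured genes. These were the matricellular genes CTGF (15.9, 7.27, 2.80 and 3.15 CPM) and CYR61 (16.3, 7.58, 11.5 and 8.41 CPM), both highest in set 1. CYR61 was only just inside the rule, with a log2 span of 1.009. Other genes of the list did not share this order: ACTB had 3351, 2816, 3191 and 3393 CPM and ACTG1 had 3683, 3319, 4580 and 4357 CPM.

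In the ARP2/3 and WAVE list, the machinery of branched filaments, 0 of 17 measured genes spanned 2-fold, and the widest was ABI1, a WAVE subunit (18.4, 20.7, 29.6 and 28.2 CPM). For myosin II it was 0 of 5, with MYH10, the heavy chain of non-muscle myosin IIB, the widest (52.4, 39.8, 42.1 and 43.8 CPM). Of 3 measured actins 1 spanned 2-fold, the smooth muscle gene ACTA2 (8.49, 19.01, 14.8 and 14.4 CPM). Of 7 intermediate filament genes 1 did, the neural progenitor filament NES (3.16, 10.9, 9.74 and 9.76 CPM). Median spans of lists, as log2(CPM + 1), ran between 0.26 (gelsolin and capping genes) and 0.59 (serum response factor targets). All measured genes had a median span of 0.33. The 9 measured genes among the 10, chosen with set differences known, had 0.56, and nothing is read from that excess.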

How the data were processed

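The authors deposited UMI counts per gene and cell, not normalized, for 19238 genes and 8173 cells; a natural log version of the same cells was not used. The submitters' processing notes name Cell Ranger 3.0.0, Seurat 3.0 and 2 genome builds, hg19 and mm10, without saying which step used which. Per the labels' protocols, 3' libraries were made with a droplet kit. Every cell held 3001 to 6999 genes and at most 19.9% mitochondrial UMIs, and all cells were kept; no doublet caller was run, so doublets may remain. A total of 19 symbols with a numbered ending were kept as separate entries.

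Counts were summed by barcode suffix and divided by the set total (CPM). Intervals are exact at 95%: Poisson for CPM, conditional binomial for ratios and Clopper-Pearson for shares. They cover counting error only. No test between sets was run, because each set is 1 unlabelled sample and cells are not replicates. Folds use a pseudocount of 1 CPM. Cells were thinned to 10000 UMIs with a fixed seed for shares, correlations, bins and phases. Phases were called with scanpy 1.11.5 from 40 of 43 S genes and 54 of 54 G2M genes. The other tools were Python 3.11.15, numpy 2.4.6, scipy 1.17.1 and, for TMM scaling factors only, edgeR 4.0.16 in R 4.3.3. The calculation was tested on simulated data.

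The 10 genes and the lists were chosen with earlier results of these data known. Genes were named if they were among the 10, if they were the up to 4 widest 2-fold genes of a list (or its widest gene), or if they were the 5 closest to CAPG, FMN2 or RND3 over sets or across cells; exceptions are marked in the text, and some genes and list results under this rule are not reported here. Alternatives changed the scaling, pseudocount, filter on low levels, thinning depth, phase and the cells kept.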

Additional observations from a re-analysis of the deposited data

How the results depend on the processing

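No paired analysis was possible because the lines have no replicates and the sets carry no line. No ratio that was at least 2-fold changed direction under the alternatives run, but ratios near 1 did. In G1 cells alone, set 1 over set 2 was 1.03 for CFL1 (0.974 over all cells), and set 3 over set 4 was 0.896 for RND3 (1.05) and 1.09 for RHOB (0.948). Smaller crossings of 1 occurred for RHOC, TMSB4X, TMSB10 and GSN between sets 2, 3 and 4, and the CAPG phase ratio of set 4 crossed 1 without its 10 richest cells (0.852, against 1.11). Correlations among CAPG, FMN2 and RND3 changed sign under some alternatives in sets 3 and 4, where none exceeded 0.0416 in size at 10000 UMIs. The number of measured genes spanning 2-fold was 434, and it was 1012 with no filter on low levels, 126 with a minimum of 50 CPM in a set and 198 with a pseudocount of 10 CPM, mainly because other genes were then tested or low genes shrunk; 4 of the 10 genes spanned 2-fold in each. In G1 cells alone, 1 of the 10 genes, TMSB4X, was 2-fold lower in set 1 than in every other set, against 0 over all cells. The set 1 correlation of CAPG with FMN2, -0.0996, was -0.0552 at the deposited depth and -0.143 with cells thinned to 20000 UMIs. That of FMN2 with RND3, 0.113, was 0.233 and 0.164 under these depths, and that of CAPG with RND3, -0.0755, was -0.0315 in G1 cells; the cause was not tested.

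Ratios of set 1 to another set ranged between 6.19 and 8.93 for FMN2 and between 2.61 and 4.08 for RND3 over the alternatives. Of 480 ratios recomputed, 360 stayed within the counting interval. Leaving out cells whose barcode occurs in more than 1 set, or the 10 cells richest in a gene, was added after the data were seen. TMM scaling moved the median of all genes by -0.06 in set 1 and by at most 0.02 in the others on the log2 scale. Totals without mitochondrial and ribosomal genes moved it by 0.48 to 0.53 in every set, so levels under it are relative to that shift.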

Other observations

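Genes lying next to CAPG, FMN2, RND3 and TMSB4X on the chromosome did not span 2-fold over the sets, where measured. The 5 protein-coding genes on each side in RefSeq order were taken for each gene. Of these, 7 were measured beside CAPG, 4 beside FMN2, 4 beside RND3 and 5 beside TMSB4X, and 0 of each spanned 2-fold. VAMP5, beside CAPG, took the same order of sets as CAPG over a smaller range (129, 90.6, 70.3 and 68.1 CPM). Beside RHOB 1 of 6 spanned 2-fold, SDC1 (4.26, 6.73, 13.1 and 13.4 CPM), which was lowest in set 1, where RHOB was highest. VAMP5 and SDC1 were named after their values were seen. TMSB10 and CAPG lie on chromosome 2 with 5 genes between them, and TMSB10 spanned a ratio of 1.31 over the sets where CAPG spanned 32.6.

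Across set 1 cells RND3 was most opposed to TOP2A, a topoisomerase of dividing cells (correlation -0.167), and closest to PHLDA1 (0.158). FMN2 was most opposed to UBE2S, a ubiquitin-conjugating enzyme of mitotic exit (-0.198), and closest to the stress gene TRIB3 (0.168). These genes were picked after their values were seen, and the cells share 1 library and 1 thinned depth.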
